A study of Homo sapiens with 6 samples.

Results

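The genes described here belong to the calcium, calcineurin and NFAT route of T cells and to the NR4A receptors that are among its targets. They are 10 genes chosen by symbol: NFATC1, NFATC2, NFATC3, RCAN1, PPP3CA, PPP3CB, STIM1, NR4A1, NR4A2 and NR4A3. The platform annotation gave 9 of the 10 a probe set, 1 each, among 17709 probe sets with a gene symbol and 21448 in all. No probe set was named for STIM1, so it was not analysed here. NR4A2 and NR4A3 were dim, with a mean log2 signal below the 25th percentile of probe set means (4.44), which left 7 of the 10 genes in the test.

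RNA of Jurkat, a long-established T-ALL (T-cell acute lymphoblastic leukaemia) line of human origin, was measured on 6 Affymetrix arrays. All cells were grown in medium with 10% serum and kept without serum for 90 min. The untreated group (3 arrays) then received nothing, and the CXCL12 group (3 arrays) received the chemokine CXCL12 at 100 ng/ml for 15 min. The titles speak of biological replicates without saying whether cultures were separate, so p-values reflect only how far these samples scattered, a scatter that could be technical.

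In T cells, calcium released from internal stores is sensed by STIM proteins, which open ORAI channels in the plasma membrane. The calcium that enters activates calcineurin, a phosphatase built from a catalytic subunit (PPP3CA, PPP3CB or PPP3CC) and a regulatory subunit. Calcineurin removes phosphates from NFAT proteins, which then enter the nucleus and switch on genes such as RCAN1, which encodes an inhibitor of calcineurin. NR4A1, NR4A2 and NR4A3 encode orphan nuclear receptors that T cells transcribe rapidly after stimulation. The control point of NFAT itself is its phosphorylation, which transcript arrays do not measure.

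Promoter sequences show which short motifs lie ahead of the genes that respond to this route in T cells. A table of RefSeq start-site windows (GRCh38.p14) matched 7 of the 10 genes, 18 windows in all, several genes having more than 1 start. The table used held no entry for PPP3CA, PPP3CB and NR4A2. The 250 bases before the start were searched on both strands for the NFAT core GGAAA, whose reverse complement reads TTTCC, and for the shared core of the cyclic AMP response element, TGACG, whose reverse complement reads CGTCA. Matches are in capitals, and where a pair of matches overlaps both were counted. The windows printed are those of RCAN1, the feedback target of NFAT, and of the NR4A genes with an entry. For RCAN1 this is the start with the most GGAAA matches. For NR4A1 it is the downstream of the 2 starts listed, and for NR4A3 the 1 start listed. Starts without an entry were not examined.
RCAN1, chr21:34526823-34527072, minus strand: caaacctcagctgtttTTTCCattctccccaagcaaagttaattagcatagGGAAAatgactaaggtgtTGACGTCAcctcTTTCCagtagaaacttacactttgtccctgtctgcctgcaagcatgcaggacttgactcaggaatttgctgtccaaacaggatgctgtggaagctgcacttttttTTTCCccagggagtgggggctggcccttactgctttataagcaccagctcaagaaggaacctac
NR4A1, chr12:52037465-52037714, plus strand: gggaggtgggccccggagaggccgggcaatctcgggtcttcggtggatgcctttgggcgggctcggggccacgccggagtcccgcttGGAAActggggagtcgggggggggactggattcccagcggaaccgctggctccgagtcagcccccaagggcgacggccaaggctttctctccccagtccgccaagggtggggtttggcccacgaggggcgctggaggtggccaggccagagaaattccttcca
NR4A3, chr9:99821635-99821884, plus strand: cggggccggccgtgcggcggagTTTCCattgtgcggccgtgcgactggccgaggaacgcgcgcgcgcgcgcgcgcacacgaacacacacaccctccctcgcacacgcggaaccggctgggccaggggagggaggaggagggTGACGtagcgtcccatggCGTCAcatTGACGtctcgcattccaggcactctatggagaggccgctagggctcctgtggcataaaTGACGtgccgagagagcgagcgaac

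The RCAN1 window held 4 GGAAA matches, at 234, 199, 169 and 64 bases before the start, and 2 overlapping TGACG matches that form the full palindrome. At least 4 GGAAA matches occurred in 1.87% of all 35116 windows of the same length, and at least 2 TGACG matches in 4.76%. The other 5 RCAN1 windows held 0 GGAAA matches, and as the window was chosen by this count, its number is a description. The NR4A3 window held 4 TGACG matches, at 109, 91, 83 and 25 bases before the start, which 0.236% of windows reached, and 1 GGAAA match. The printed NR4A1 window held 1 GGAAA match, where 55.6% of windows held at least 1, and 0 TGACG matches. The other NR4A1 window held 0 of either. These are letters in a window and not measured binding sites, and the array's 1 probe set per gene does not separate transcripts from different starts.

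None of the 7 tested genes passed the test between CXCL12 and untreated cells, and most had arrays of the groups intermingled. After Benjamini-Hochberg adjustment of limma's p-values over 16086 probe sets, 0 of the 7 passed 0.05, against 0.0124% of all tested probe sets. At an unadjusted limma p under 0.05 the count was also 0 of 7, against 4.73% of all. In RNA from whole cultures, fewer cells with a transcript and less of it per cell cannot be told apart. The 7 log2 changes (CXCL12 minus untreated) ran from -0.15 to 0.26, 3 of them positive (50.7% of all tested probe sets were positive). Each of the 7 had a 95% interval within a 1.5-fold change either way, which held for 89.9% of all tested probe sets. Over the 9 genes with a probe set the median change was 0.07, beside 0.01 over all 21448 probe sets. That median is the value of the dim NR4A2. Over the 7 tested genes the median was -0.003, beside 0.002 over all tested probe sets. Dropping untreated replicate 1 turned the median of the 9 to -0.05, and dropping untreated replicate 2 raised it to 0.19, so single arrays set its sign. Both values are again those of NR4A2.

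The labelled cell type was checked on its markers. All 13 markers listed for T cells or T-ALL (CD3D, CD3E, CD3G, CD247, CD2, CD5, CD7, CD28, LCK, ZAP70, PTCRA, TAL1 and BCL11B) lay above the dim limit. The mean log2 signal over this list was 9.08 to 9.15 in untreated and in CXCL12 arrays. Of 17 markers of other cells, 15 had a probe set and 11 of these were above the limit, with list means of 5.91 to 5.96 in untreated and 5.87 to 5.94 in CXCL12 arrays. MS4A1, LYZ, FCGR3A and EPCAM were dim. CD79A, CD14, CSF1R, NCAM1, GATA1, HBB, HBA1, KRT8, COL1A1, COL1A2 and PECAM1 were not, and their part in any result was not tested. The limit alone does not sort cell types, as 16086 of all 21448 probe sets were at or above it. Over the 6 arrays, CD79A, the highest marker of other cells, averaged 7.92, above PTCRA, the lowest T-cell marker, at 6.21. Array medians ran from 6.18 to 6.21. Untreated replicate 1 stood apart, with a mean correlation of 0.982 with the other arrays against 0.987 to 0.989 for the rest, and a score of -27.8 on the first principal component, where CXCL12 replicate 2 came next at -5.84.

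**Figure D1:**
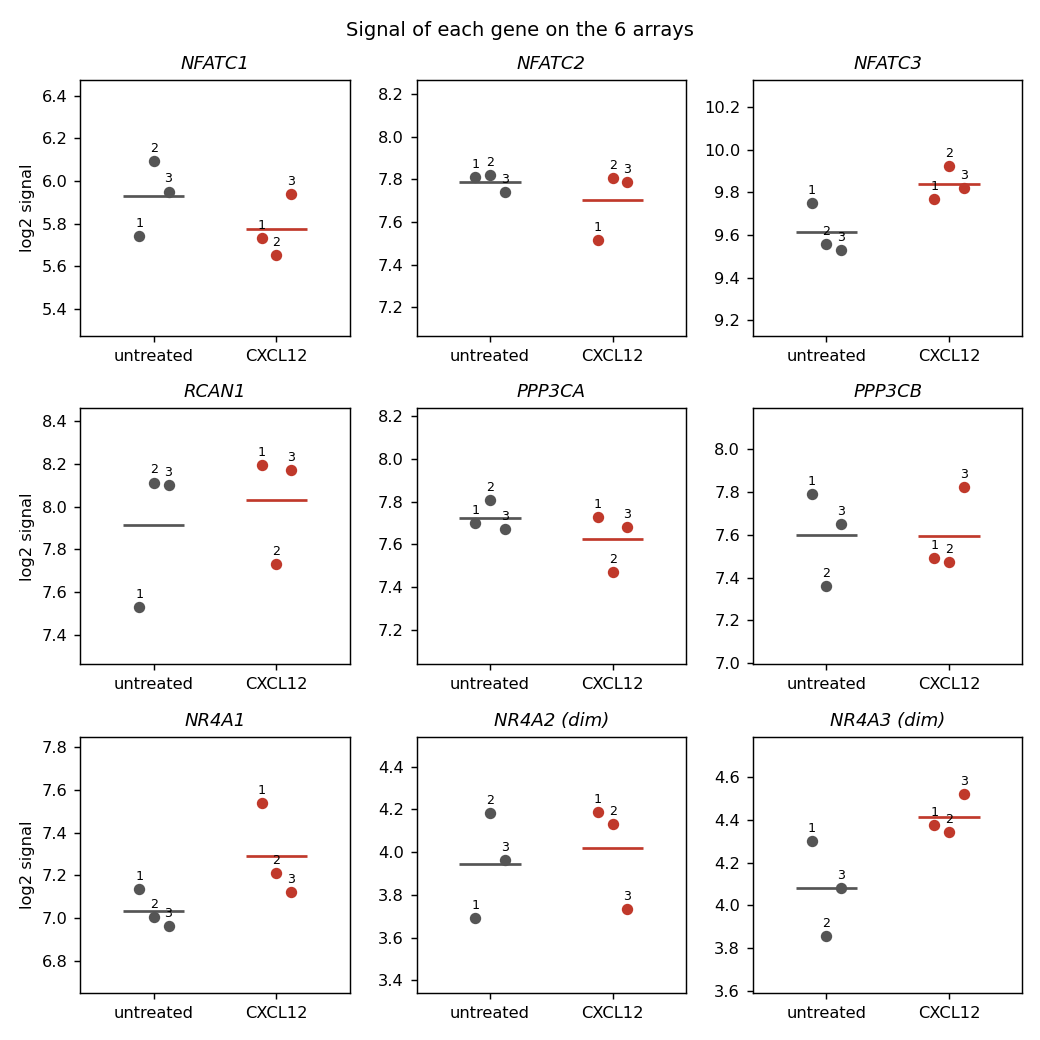
The log2 signal of the 9 genes with a probe set, untreated in grey and CXCL12 in red. Points are single arrays marked with their replicate number, bars are group means (n = 3), and every panel spans 1.2 log2 units. NFATC3 and the dim NR4A3 show no overlap between groups, and RCAN1 is lowest on untreated replicate 1 and CXCL12 replicate 2.

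NR4A1, the orphan receptor also known as Nur77, had the largest change of the 7 tested genes, with an interval that included 0. Its log2 signal on untreated replicates 1, 2 and 3 was 7.14, 7.01 and 6.96, and on CXCL12 replicates 1, 2 and 3 it was 7.54, 7.21 and 7.12. CXCL12 replicate 1 was the high array, and CXCL12 replicate 3 fell just under untreated replicate 1, so the groups overlapped. The means were 7.04 ± 0.09 and 7.29 ± 0.22 (SD, n = 3 each). The log2 change was 0.26 (SE 0.14, 95% interval -0.04 to 0.55, or 0.97-fold to 1.47-fold), with an limma adjusted p of 0.996 and the 1279th smallest unadjusted p, 0.0858, of 16086. Without CXCL12 replicate 1 the change was 0.13, so that array supplied much of it.

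NR4A3, the receptor also called NOR1, lay under the dim limit on nearly every array and was not in the main test. It was listed at 4.30, 3.86 and 4.08 on untreated replicates 1, 2 and 3 and at 4.38, 4.35 and 4.52 on the CXCL12 replicates in the same order. Every CXCL12 array was above every untreated array, as for 5.05% of the tested probe sets, which leave NR4A3 out. The share over all 21448 was not computed. CXCL12 replicate 3 was the 1 array above 4.44. With no filter on dim probe sets the change was 0.34 (SE 0.14, 95% interval 0.03 to 0.64). The unadjusted limma p was 0.0342 and the limma adjusted p 0.992 over 21448 probe sets. In the main fit, 4.73% of tested probe sets had an unadjusted p under 0.05. With 1 array dropped the change ran from 0.23 (untreated replicate 2 dropped) to 0.45 (untreated replicate 1 dropped). As the groups did not overlap, its sign could not turn. At this signal, array background makes up an unknown share of the value.

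NR4A2, also called NURR1, was lower still and showed no separation. The untreated arrays read 3.69, 4.18 and 3.96 and the CXCL12 arrays 4.19, 4.13 and 3.73. All 6 values were under the dim limit, and high and low arrays occurred in both groups. The change was 0.07, and it ran from -0.05 to 0.21 when single arrays were left out. No statement about its expression in these cells can be made from such values.

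EGR1 gives the scale of a transcript that did respond within 15 min in these cells, and was picked as reference for that reason. This zinc-finger immediate early factor had a log2 change of 1.98 (95% interval 1.70 to 2.27, limma adjusted p = 4.52e-05). The array-by-array difference of EGR1 minus NR4A1 ran from -1.20 to -0.84 in untreated and from 0.59 to 0.86 in CXCL12 cells. EGR1 thus changed by 1.73 more than NR4A1 on the log2 scale, without overlap. The exact two-sided permutation test over 20 splits gave p = 0.1, the smallest that 3 against 3 arrays allow, and as EGR1 was picked for its change this is a description. Probe sets differ in how much they compress a change, so the ratio of the 2 changes is not a ratio of RNA.

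NFATC3, the NFAT factor prominent in thymocytes, was the 1 tested member whose groups did not overlap, which 9.54% of all tested probe sets showed (5.05% with CXCL12 above). Signals on untreated replicates 1, 2 and 3 were 9.75, 9.56 and 9.53, and on CXCL12 replicates 9.77, 9.92 and 9.82. The gap between untreated replicate 1 and CXCL12 replicate 1 was very small beside the spread within the groups. NFATC3 averaged 9.61 ± 0.12 in untreated and 9.84 ± 0.08 in CXCL12 cells (SD, n = 3 each). The change was 0.23 (SE 0.12, 95% interval -0.04 to 0.49, 0.97-fold to 1.40-fold, limma adjusted p = 0.996). It ran from 0.18 to 0.29 when single arrays were left out.

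NFATC1, whose short isoform is induced through NFAT sites in activated T cells, gave values in the other direction, with overlap. Untreated replicates 1, 2 and 3 read 5.74, 6.09 and 5.95, and CXCL12 replicates 5.73, 5.66 and 5.94. The log2 change was -0.15 (SE 0.14, 95% interval -0.45 to 0.14, limma adjusted p = 0.996), and dropping untreated replicate 2 or 1 gave -0.07 or -0.25. Which NFATC1 isoforms the probe set reads was not examined, and its value does not tell them apart.

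NFATC2, an NFAT factor already present in resting T cells, was level except for 1 array. It read 7.81, 7.82 and 7.74 in untreated replicates 1, 2 and 3 and 7.51, 7.81 and 7.79 in CXCL12 replicates. Only CXCL12 replicate 1 was low. The change of -0.09 (95% interval -0.36 to 0.18) became 0.01 without that array. NFATC4 and NFAT5, the remaining genes of the family, had changes of -0.05 and -0.01. In the NFAT family 0 of 5 genes passed at the adjusted threshold, the change being positive in 1 and negative in 4 (median -0.05).

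RCAN1, the NFAT target that encodes a calcineurin inhibitor, varied more within the groups than between them. The untreated arrays read 7.53, 8.11 and 8.10 and the CXCL12 arrays 8.19, 7.73 and 8.17. Untreated replicate 1 and CXCL12 replicate 2 were low, and the 4 other arrays lay between 8.10 and 8.19. These 2 arrays were also the lowest on the first principal component of all tested probe sets, and the part of that in the RCAN1 values was not tested. The means were 7.91 ± 0.33 and 8.03 ± 0.26 (SD, n = 3 each), and the change 0.12 had a 95% interval from -0.27 to 0.51 (0.83-fold to 1.42-fold, limma adjusted p = 0.996). Dropping untreated replicate 1 gave -0.07, and dropping CXCL12 replicate 2 gave 0.27. With both arrays left out, an alternative added after their values were seen, it was 0.08 (limma adjusted p = 0.933).

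The other RCAN genes also had wide intervals. RCAN2, close to the dim limit, had 0.29 (95% interval -0.13 to 0.70) and was 0.09 without CXCL12 replicate 2. RCAN3 had -0.18 (95% interval -0.51 to 0.15) and was -0.03 without CXCL12 replicate 1. Among 10 listed inhibitors, anchors and partners of calcineurin, 9 were tested, 6 with a positive and 3 with a negative change, and 0 passed at the adjusted threshold.

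PPP3CA, the alpha catalytic subunit of calcineurin, was nearly level. It read 7.70, 7.80 and 7.67 in untreated replicates 1, 2 and 3 and 7.73, 7.47 and 7.68 in CXCL12 replicates. CXCL12 replicate 2 was the low array. The change of -0.10 (SE 0.12, 95% interval -0.37 to 0.17, limma adjusted p = 0.996) became -0.02 without it.

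PPP3CB, the beta catalytic subunit, had the same mean in both groups to 2 decimals. The untreated arrays read 7.79, 7.36 and 7.65 and the CXCL12 arrays 7.49, 7.47 and 7.83, so the full range of one group nearly matched that of the other. The change was -0.003 (95% interval -0.33 to 0.32, 0.80-fold to 1.25-fold, limma adjusted p = 0.999). Its sign turned with quantile normalization and cyclic loess, which gave 0.01 and 0.004.

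PPP3CC, the gamma catalytic subunit, is not among the 10 genes but completes the set of catalytic subunits, and it had the smallest unadjusted p of the 58 tested pathway genes. Its signal was 7.57, 7.56 and 7.46 on untreated replicates 1, 2 and 3 and 7.21, 7.02 and 7.08 on CXCL12 replicates. Every CXCL12 array was below every untreated array, as for 4.48% of tested probe sets. The log2 change was -0.43 (SE 0.12, 95% interval -0.68 to -0.17, or 0.74-fold), with the 57th smallest of 16086 unadjusted p-values, 0.00338. It did not pass after adjustment (limma adjusted p = 0.927), nor in any of the 17 alternatives, and ran from -0.48 to -0.38 when single arrays were left out. The regulatory subunit PPP3R1 had -0.04 (95% interval -0.37 to 0.29), and PPP3R2 was dim. All 4 tested calcineurin subunits had a negative change, where 50.7% of all tested probe sets had a positive one. The median was -0.07, and 0 of 4 passed. PPP3CB was at -0.003, and its sign turned under other normalizations.

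**Figure D2:**
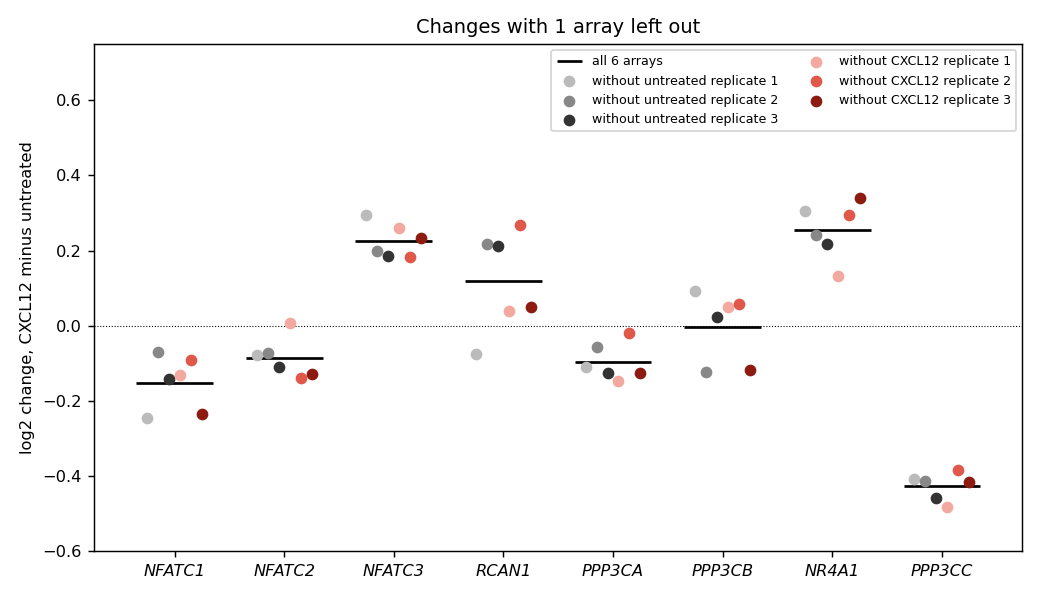
The log2 change (CXCL12 minus untreated) of the 7 tested genes and of PPP3CC. Black bars use all 6 arrays and each point leaves out 1 array. NFATC3, NR4A1, NFATC1, PPP3CA and PPP3CC stay on one side of 0, while RCAN1 spans -0.07 to 0.27 and PPP3CB -0.12 to 0.09. For NFATC3 and PPP3CC, whose groups do not overlap, the sign could not turn.

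STIM2, the weaker calcium sensor of the endoplasmic reticulum and the only STIM gene with a named probe set, had a change of -0.18 (95% interval -0.54 to 0.18) and was -0.02 without untreated replicate 1. ORAI1, the pore subunit of the store-operated channel, had -0.001 (95% interval -0.30 to 0.30). ORAI2, a further pore subunit, had an unadjusted p of 0.0408. The ORAI2 arrays read 7.97, 7.79 and 7.61 in untreated replicates 1, 2 and 3 and 7.32, 7.79 and 6.998 in CXCL12 replicates. CXCL12 replicate 2 lay within the untreated range, so the groups overlapped. The ORAI2 change was -0.42 (95% interval -0.82 to -0.02, limma adjusted p = 0.996), or -0.23 without CXCL12 replicate 3 and -0.63 without CXCL12 replicate 2. Of 8 listed genes of store-operated entry, 6 were tested, 1 with a positive and 5 with a negative change (median -0.14), and 0 passed at the adjusted threshold.

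Genes of calcium release and removal were close to level. PLCB2 and PLCB3, phospholipases that G protein-coupled receptors activate, had -0.05 (95% interval -0.30 to 0.20) and 0.15 (-0.22 to 0.51). For PLCB3, dropping untreated replicate 2 gave 0.36 and dropping untreated replicate 3 gave 0.02. PLCG1, the phospholipase of the T cell receptor, had 0.06 (-0.24 to 0.35). Of 13 listed, 10 were tested, 5 in each direction, with changes from -0.21 to 0.15 and 0 past the adjusted threshold.

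Kinases that return NFAT to the cytoplasm, listed with its carriers and with HOMER2 and HOMER3, had small changes. GSK3A, GSK3B and DYRK1A, kinases that phosphorylate NFAT, had -0.05, 0.001 and 0.14, each with an interval that included 0. Of 11 genes, all were tested, 8 with a positive and 3 with a negative change (median 0.10), and 0 passed at the adjusted threshold. The 11 intervals lay within a 1.5-fold change either way.

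Regulators of the NR4A1 gene did not pass either. MEF2D, a MEF2 factor that binds the NR4A1 promoter in thymocytes, had -0.24 (95% interval -0.53 to 0.06) and was -0.12 without untreated replicate 1. MEF2A had -0.03 and HDAC4, a class IIa deacetylase that holds MEF2 factors silent, -0.02. CRTC2, a calcineurin-dependent coactivator of CREB, was named for its small p. It had 7.97, 7.94 and 7.76 in untreated replicates 1, 2 and 3 and 7.65, 7.60 and 7.74 in CXCL12 replicates. The CRTC2 groups did not overlap, with CXCL12 below, as for 4.48% of tested probe sets. The change was -0.23 (95% interval -0.49 to 0.03, limma adjusted p = 0.996). Of 12 listed regulators 9 were tested, 2 with a positive and 7 with a negative change (median -0.09).

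Targets of NFAT were mostly below the dim limit. Of 16 listed, RCAN1 included, 11 had a probe set and 4 were tested, and the 7 dim ones included the cytokine genes IL2, IL3, IL4 and IFNG. EGR3, a zinc-finger factor downstream of NFAT, had 0.10 (95% interval -0.19 to 0.40), and IRF4, a factor of activated lymphocytes, 0.24 (-0.06 to 0.54). EGR3 was -0.03 without CXCL12 replicate 2. The 4 tested targets, RCAN1, EGR3, IRF4 and TOX (0.02), all had a positive change, as 50.7% of all tested probe sets did. Their median was 0.11, and 0 passed at the adjusted threshold. Over the 11 with a probe set, dim ones included, 8 changes were positive and 3 negative, with a median of 0.04.

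Over all pathway lists, 69 of 82 genes had a probe set and 58 were tested. The change was positive in 27 of these and negative in 31, and the median was -0.01, beside 0.002 over all tested probe sets. At the adjusted threshold 0 of 58 passed. At an unadjusted p under 0.05 there were 0 higher and 2 lower (PPP3CC and ORAI2), where 2.72% and 2.01% of all tested probe sets were. Arrays did not overlap for 4 of the 58, a share near the 9.54% of all: NFATC3 and CSNK1A1, a casein kinase, with CXCL12 above, and PPP3CC and CRTC2 with CXCL12 below.

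**Figure D3:**
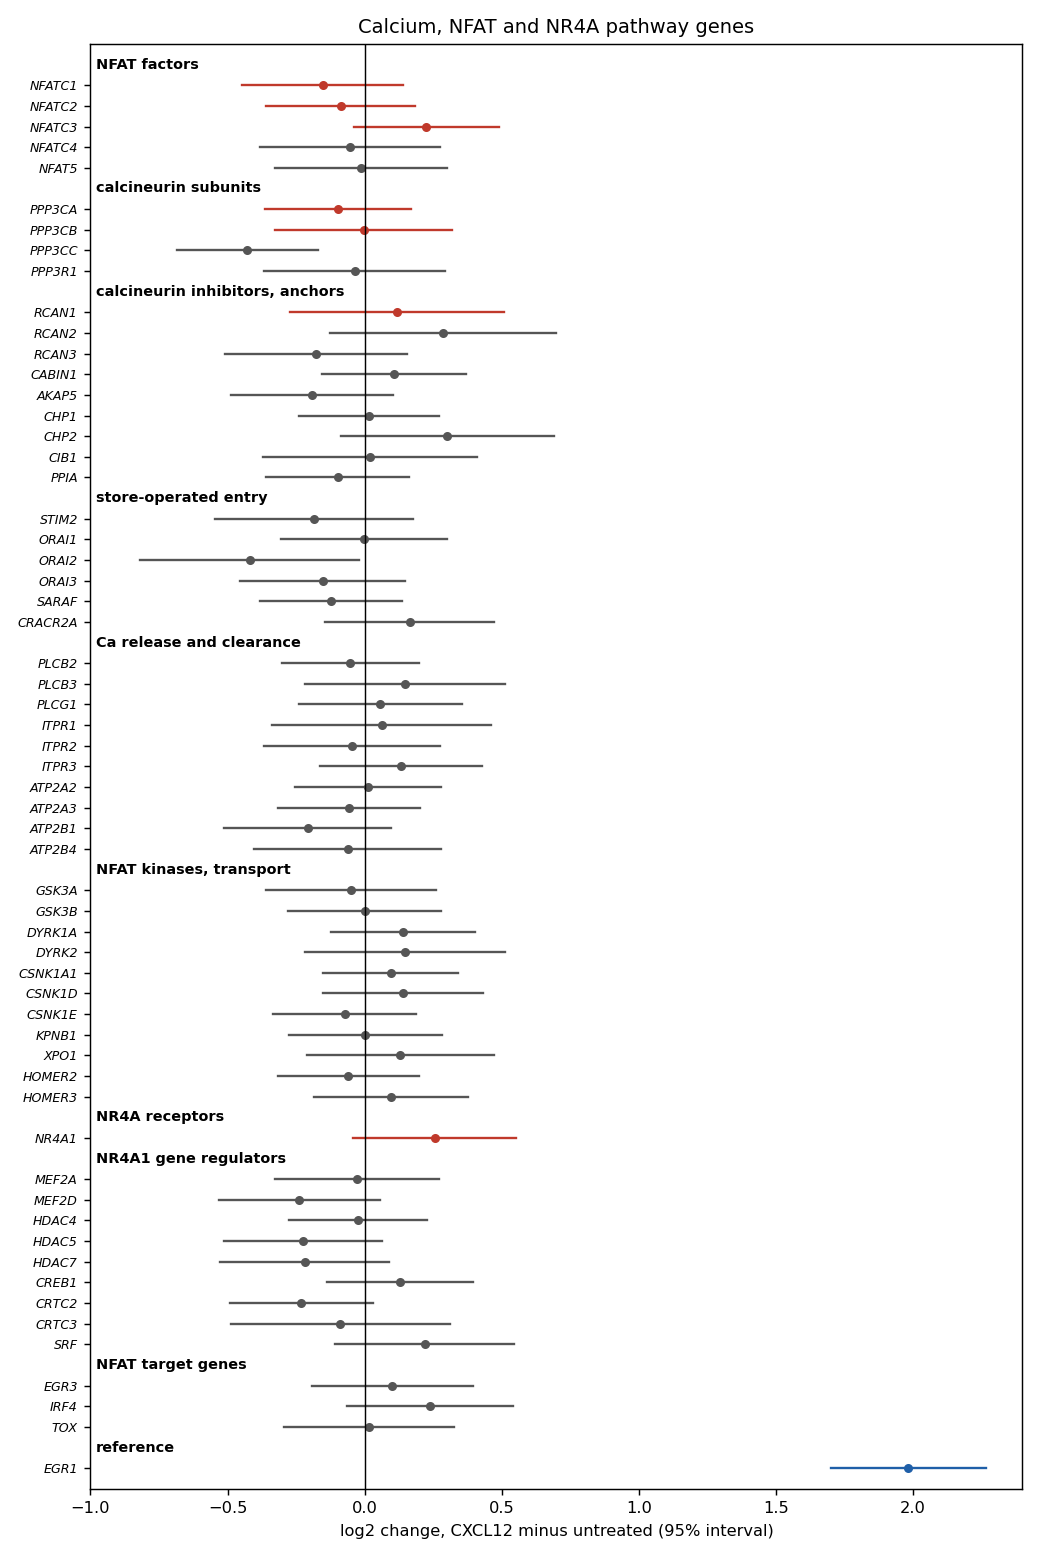
The log2 change (CXCL12 minus untreated) of the 58 tested pathway genes by role, with limma's 95% interval; the 7 tested genes of the 10 are red, other genes grey and EGR1 blue. All intervals except those of PPP3CC, ORAI2 and EGR1 include 0, and EGR1 lies apart at 1.98.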

How the data were processed

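RNA of 6 samples was hybridised to 1 array each. The authors deposited 1 log2 value per probe set and array; RMA (background subtraction, normalization between arrays and probe summary) and the Transcriptome Analysis Console are named per the submitters' processing notes, with versions, settings and build not given in the sources used here. Without scanner files, neither detection calls nor scan batches were examined; precision is limited by the number of arrays. Names came from the platform annotation: 17709 had 1 symbol, 0 several and 3739 none. A gene was read from its probe set with the highest mean. Values were fitted as deposited in R 4.3.3 by limma 3.58.1, two-sided (lmFit, then eBayes; no covariates), over the 16086 probe sets at or above the 25th percentile of means, with Benjamini-Hochberg adjustment, threshold 0.05. The fit was tested on simulated data. The 95% intervals had a median half-width of 0.29 (log2).

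Members and lists were chosen with earlier results of these data known. Named genes were the 10, EGR1, the first 3 tested genes of each list in written order and the 5 pathway genes with the smallest p; other genes were named after their values were seen. For NR4A1 and RCAN1 the 3 genes with the closest array profile were also taken. Alternatives were other filters, normalizations, priors, weights and thresholds, a replicate block, averaged probe sets and leaving out arrays.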

Additional observations from a re-analysis of the deposited data

How the results depend on the processing

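The count of 0 members past the threshold held in all 17 alternatives (NR4A2 and NR4A3 were tested only where dim probe sets were kept, and NFATC1 not where the lower 50% was left out). The count of 2 probe sets past it became 1 when dim probe sets were kept, after median centring and after cyclic loess. It was 3 with the lower 50% left out, under the trended robust prior and with untreated replicate 1 and CXCL12 replicate 2 dropped together. Array weights gave 4, and calls by unadjusted p and a 1.5-fold change gave 34 (22 up, 12 down). The count ran from 1 to 2 when 1 array was left out. The members' median change ran from -0.0537 to 0.191 when 1 array was left out, and EGR1 minus NR4A1 from 1.64 to 1.83. Under the replicate block, 2 probe sets and 0 members passed, and no call changed; deviations of same-numbered arrays correlated at -0.19, -0.11 and 0.11, and the labels state no pairing. Signs of single tested genes turned in 31 of 438 refits, in each case for a gene not past the threshold: with 1 array left out, or untreated replicate 1 and CXCL12 replicate 2 together (a setting chosen after seeing the data), NFATC2 ran from -0.14 to 0.0074, RCAN1 from -0.075 to 0.27, PPP3CB from -0.12 to 0.15, STIM2 from -0.31 to 0.0041, ORAI1 from -0.095 to 0.10, PLCG1 from -0.071 to 0.15, GSK3A from -0.15 to 0.061, GSK3B from -0.060 to 0.13, MEF2A from -0.13 to 0.14, HDAC4 from -0.069 to 0.013 and EGR3 from -0.025 to 0.19. PPP3CB turned to 0.013 under quantile normalization, 0.0037 under cyclic loess and 0.034 under array weights. ORAI1 turned to 0.014 under quantile normalization and 0.015 under cyclic loess, GSK3B to -0.020 under median centring, and MEF2A to 0.036 under array weights. The causes were not tested. After median centring the median over all tested probe sets was -0.02. With 3 arrays a group, the 95% interval of a typical gene, without adjustment, could not tell changes under about 0.29 (log2) from 0. The adjusted threshold was stricter: PPP3CC, at -0.43, had a limma adjusted p of 0.927.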

Other observations

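The genes whose array profile was closest to that of RCAN1, of 13454 compared, were WDR82, TRIM27 and GNPDA1, with root mean square differences of 0.02, 0.03 and 0.04 on the log2 scale over 6 arrays. WDR82, a subunit of a histone methyltransferase complex, read 9.48, 10.05 and 10.03 on untreated and 10.1, 9.64 and 10.06 on CXCL12 replicates 1, 2 and 3. All 3 genes were low on untreated replicate 1 and CXCL12 replicate 2, as RCAN1 was. For NR4A1 the closest were RNF207, CHRD and ALPK3, with differences of 0.04, 0.05 and 0.05 and changes of 0.21, 0.25 and 0.22, and CXCL12 replicate 1 was the highest array for each of them. Closeness over 6 arrays among so many genes is a description of these arrays.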
